A study of Mus musculus with 10 samples.

Results

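The genes described here are those of the proteasome, taken by symbol: every autosomal protein-coding mouse gene whose RefSeq symbol begins with Psm, a letter from a to g and a digit. The rule found 50 of 20665 autosomal protein-coding genes. By role they are 31 constitutive subunits of the 26S particle, 3 immunoproteasome subunits (Psmb8, Psmb9 and Psmb10), 2 core subunits restricted to single tissues, 5 activators, 1 inhibitor, 4 chaperones of core assembly and 2 chaperones of the regulatory particle. The remaining 2 matches, Psmc3ip and Psme3ip1, carry the symbol root but are not subunits. One match on the X chromosome, Psmd10, lay outside the rule.

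The histone mark H3K4me3 (trimethylated lysine 4 of histone H3) was profiled with ChIP-seq, in which DNA bound to an antibody against the mark is sequenced, in NeuN+ nuclei sorted from hippocampal area CA1 of male mice aged 3 months. There were 4 libraries of CamkdeltaC transgenic mice, which carry a transgene for the delta C form of calcium/calmodulin-dependent kinase II, and 4 of wildtype littermate controls. In the published line of this name the transgene is active in heart muscle; the labels name no promoter. The protocol text gives the controls vehicle in their drinking water and splits the transgenic mice between vehicle and Vorinostat, a histone deacetylase inhibitor, while no library carries a drug label.

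The proteasome is the main protease of cytosol and nucleus and degrades proteins tagged with ubiquitin. Its barrel-shaped 20S core stacks rings of alpha subunits, which gate the entrance, around rings of beta subunits, of which those encoded by Psmb5, Psmb6 and Psmb7 cut peptide bonds. The 19S regulatory particle binds ubiquitin chains, removes them and unfolds the substrate with a ring of ATPases. In cells exposed to interferon, Psmb8, Psmb9 and Psmb10 replace the constitutive cutting subunits and yield peptides suited to presentation on MHC class I. Neurons are held to depend on the constitutive form, and synaptic plasticity needs regulated degradation. H3K4me3 sits at the starts of transcribed and poised genes, so its breadth there describes the state of the promoter and not the amount of RNA or protein.

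The measure was the number of base pairs (bp) covered by the authors' peaks within 2 kb to each side of the better covered end of each gene, a window of fixed size. The control lists held 51903 to 66811 peaks and the transgenic lists 60388 to 102285, the last in transgenic library 1. The read depth behind the lists is unknown. A pair of libraries shared between 46.8% and 65.2% of the length that either covered. All 8 neuronal marker genes carried a peak in all 8 libraries, while 0 of 9 microglial markers did. Fewer cells with the mark and less mark per cell cannot be told apart in such bulk samples.

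Nearly the whole proteasome carried the mark. A peak was present in every library at 45 of the 50 genes (90%), against 63.4% of all autosomal protein-coding genes. The mean over 8 libraries ranged from 1048 bp at Psme1 to 3182 bp at Psma7 among these 45, with a median of 1748 bp and quartiles of 1519 and 2004 bp. Over the autosomal genes that entered the comparison of groups, those marked in 4 or more libraries, the quartiles were 1129 and 2179 bp around a median of 1669 bp, and 34 of the 45 lay between them. The ratio of the highest to the lowest library at a gene had a median of 1.24 and ran from 1.07 to 1.58. At 43 of the 50 genes the opposite gene end had no peak at all.

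**Figure D1:**
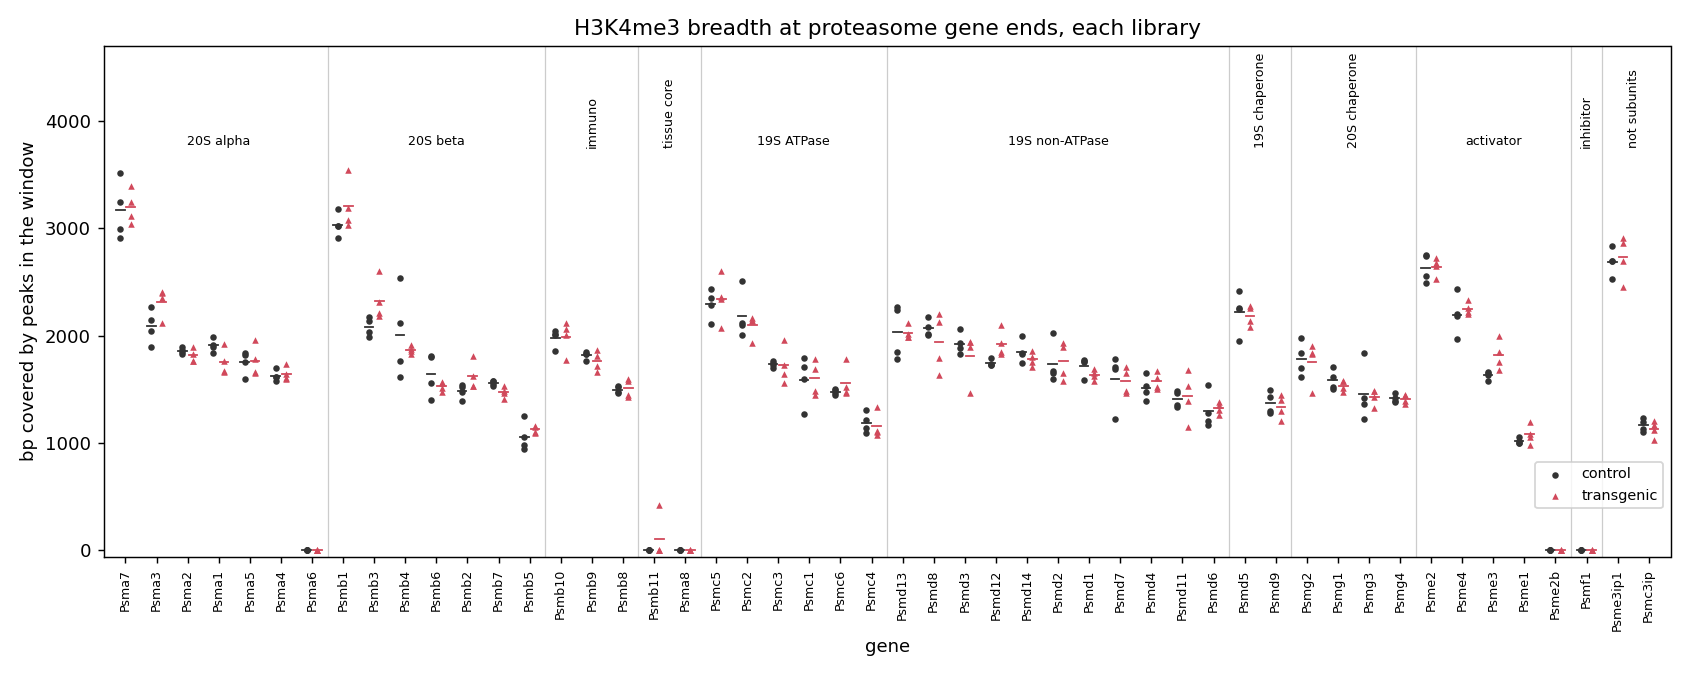
Base pairs covered by H3K4me3 peaks in the window of each of the 50 genes, grouped by role; circles are the 4 control and triangles the 4 transgenic libraries, and short bars are group means. The 45 genes marked in every library average 1048 to 3182 bp with both groups interleaved at most of them, and 5 genes lie at or near 0.

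The 5 genes without a peak in every library were of different kinds. Psma8, the alpha subunit of the testis proteasome, had no peak at either end in any library. No RefSeq start was available for Psma8, so only its gene ends were measured. Psmb11, the beta subunit of the thymic cortex, was at 0 bp in 7 libraries and at 424 bp in transgenic library 4. Psme2b, a gene related to the activator Psme2, was at 0 bp in every library. Psma6 and Psmf1 were also at 0 bp in every window, yet their RefSeq starts lay 14603 and 25248 bp from the gene end that was measured. Around the RefSeq start, Psma6 covered 1778, 1956, 1834 and 1877 bp in control libraries 1 to 4 and 1933, 1779, 1859 and 1827 bp in transgenic libraries 1 to 4. Their zeros therefore belong to the gene ends used and not to the promoters. With the RefSeq starts, known for 42 of the 50 genes, 40 of 42 were marked in each library, the exceptions being Psmb11 and Psme2b.

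The transgenic and control groups were compared over all 14753 protein-coding genes with a peak in at least 4 libraries, 45 of the 50 among them, with limma on log2(bp + 100) after each library was centred on its median. None of the 45 passed an adjusted p of 0.05, and of all genes 0.00% did, with a smallest adjusted p of 0.9998 among the 45. At an unadjusted p under 0.05 there were 0 of 45 higher, where 2.80% of all genes were, and 0 of 45 lower, where 1.32% were. The median log2 difference, transgenic minus control, was -0.015 for the 45 genes and -0.0079 for all genes tested. Of the 45, 14 (31.1%) had a difference above 0 and 31 below, against 46.4% above 0 among all genes tested. Without centring the median of the 45 was 0.0053, so its sign rests on that step. For 45 of 45 genes both bounds of the 95% confidence interval stayed inside a 1.5-fold difference up or down, against 81.4% of all genes tested. All 45 had a peak in every library, against 91.8% of all genes tested, so these shares do not compare like genes.

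**Figure D2:**
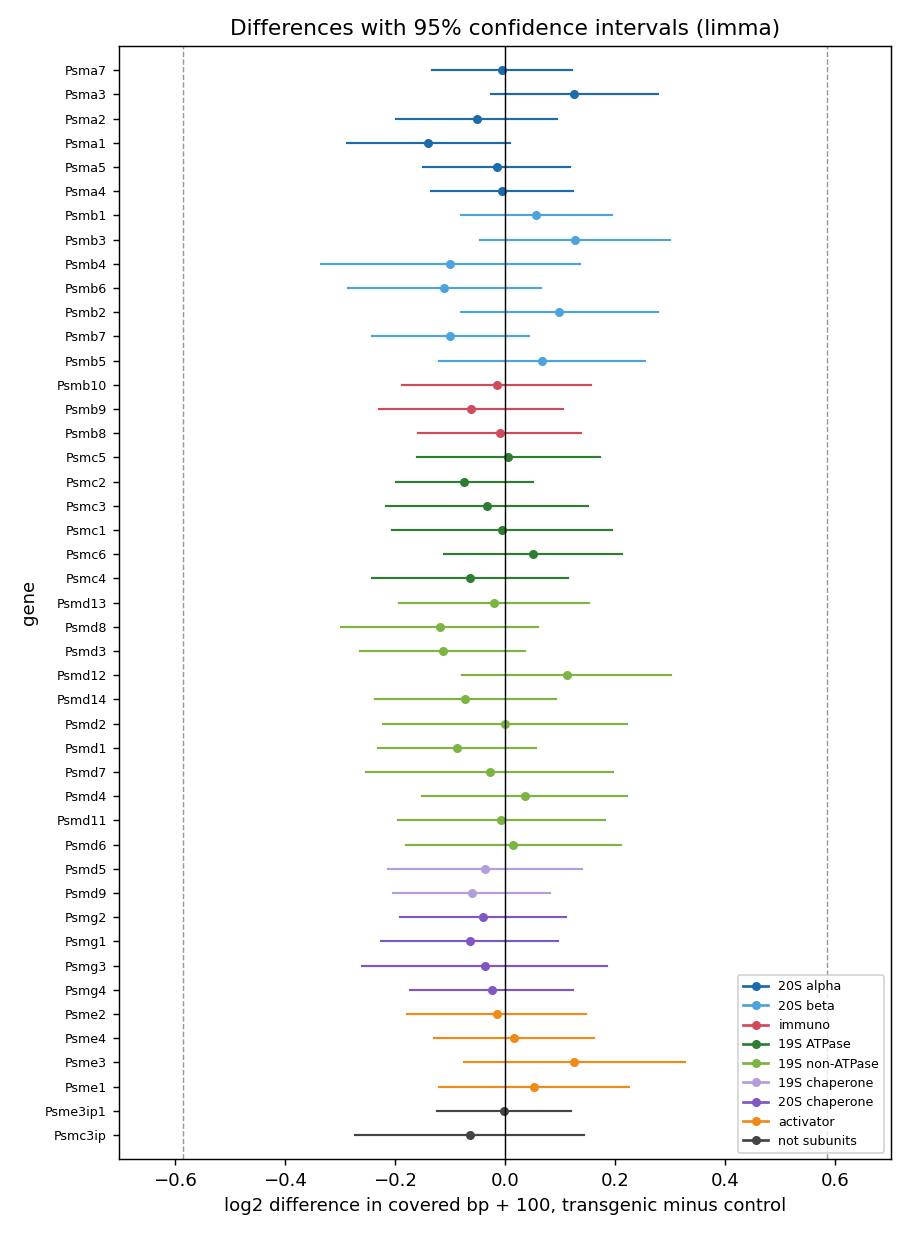
Log2 difference in covered bp + 100 between transgenic and control libraries for the 45 genes tested, with 95% confidence intervals from limma (4 libraries a group), coloured by role. The dashed lines mark a 1.5-fold difference; each interval includes 0 and none reaches a dashed line.

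The groups' covered lengths, taken without centring, did not overlap at 4 genes. They were higher in every transgenic library at 3 genes, Psmb3, Psmd12 and Psme3, where 1.86% of all genes tested were so, and lower at 1 gene, Psmb7, where 0.481% were. After each library was centred as for limma, the groups overlapped at each of the 4. The median over promoters marked in all 8 libraries ran from 1612.5 bp in transgenic library 1 to 1844 bp in transgenic library 4. Psmb3, a structural beta subunit, covered 2140, 2035, 1988 and 2174 bp in control libraries 1 to 4 and 2309, 2604, 2207 and 2180 bp in transgenic libraries 1 to 4. The lowest transgenic library there exceeded the highest control library by a few bp. The log2 difference of Psmb3 was 0.13 ± 0.077 (SE; interval -0.04 to 0.30), and -0.0053 in a window of 1 kb to each side. The marked end of Pcgf2 lies 1000 bp from that of Psmb3, and its part in these lengths was not tested. Psmd12, a scaffold subunit of the regulatory particle, covered 1737, 1788, 1727 and 1727 bp in the controls and 2098, 1934, 1824 and 1843 bp in the transgenic libraries, a log2 difference of 0.11 ± 0.085. Psme3, which encodes a nuclear activator that works without ubiquitin, covered 1654, 1661, 1577 and 1636 bp in the controls and 1999, 1756, 1848 and 1679 bp in the transgenic libraries, a log2 difference of 0.13 ± 0.090. At Psmd12 and Psme3 transgenic library 1, the one with the most peaks, was the highest. Psmb7, whose product cuts after basic residues, covered 1533, 1573, 1552 and 1576 bp in the controls and 1466, 1409, 1530 and 1479 bp in the transgenic libraries. Its log2 difference was -0.10 ± 0.064 (SE; interval -0.24 to 0.04), -0.025 in the window of 1 kb and -0.17 in one of 5 kb to each side. Each of these 4 had an adjusted p of 0.9998 in limma. Without transgenic library 1, and again without centring, 5 of the 45 were higher without overlap (Psma3 and Psme1 added), where 5.61% of all genes were, and 1 was lower, where 0.698% were.

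Of the 7 alpha subunits 6 were tested, and 1 had a difference above 0. Psma1 had the smallest unadjusted p of the 45, 0.062 in limma. It covered 1911, 1840, 1897 and 1986 bp in control libraries 1 to 4 and 1764, 1661, 1666 and 1917 bp in transgenic libraries 1 to 4. The fourth transgenic library lay among the controls, and the log2 difference was -0.14 ± 0.066 (interval -0.29 to 0.01), or -0.038 in the window of 1 kb. Psma3 had a log2 difference of 0.13 ± 0.068 at its gene end and 0.01 at its RefSeq start, 5340 bp away. Psma7 was the broadest of all members, at 2907 to 3520 bp in the controls and 3038 to 3392 bp in the transgenic libraries, and its marked end lies 19 bp from that of Ss18l1, a neuronal chromatin remodelling subunit. Psma2, Psma4 and Psma5 averaged 1835, 1633 and 1758 bp. Psma2 shares its marked region with Mrpl32, 205 bp away, and Psma4 with AY074887 and Hykk, 537 and 857 bp away.

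The constitutive beta subunits spanned nearly the full range of the family. Psmb1, a structural subunit, averaged 3122 bp and lies 1612 bp from the marked end of Tbp, which encodes the TATA-binding protein. Psmb5, the subunit that cuts after hydrophobic residues, was the narrowest of the core. It covered 939, 984, 1058 and 1250 bp in the controls and 1095, 1144, 1101 and 1157 bp in the transgenic libraries. Those groups overlapped, with a log2 difference of 0.07 ± 0.083. Psmb6, which cuts after acidic residues, covered 1398, 1556, 1809 and 1804 bp in the controls and 1512, 1561, 1478 and 1566 bp in the transgenic libraries, and its difference was -0.11 ± 0.078. Psmb4, a structural subunit, varied most among controls, from 1612 to 2540 bp, against 1827 to 1915 bp in the transgenic libraries. Psmb2 averaged 1553 bp, with a log2 difference of 0.10 ± 0.080.

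The immunoproteasome genes were marked in these neuronal nuclei, and their breadth lay within the range of the constitutive subunits. All 3 carried a peak in every library, with a median of 1790 bp against 1748 bp for the 31 constitutive subunits, which include Psma6 at 0 bp. At RefSeq starts the order was the other way, 1790 bp against 1813 bp for the 25 constitutive subunits with a known start. The means of Psmb8, Psmb9 and Psmb10, 1503, 1790 and 1985 bp, stood beside 1091, 1586 and 1515 bp at Psmb5, Psmb6 and Psmb7, the subunits they replace. Psmb8, the counterpart of Psmb5, covered 1460, 1476, 1522 and 1528 bp in control libraries 1 to 4 and 1446, 1591, 1572 and 1431 bp in transgenic libraries 1 to 4. Psmb9, the counterpart of Psmb6, covered 1830, 1845, 1759 and 1832 bp in the controls and 1813, 1861, 1664 and 1719 bp in the transgenic libraries. Psmb10, the counterpart of Psmb7, covered 1859, 2011, 2002 and 2046 bp in the controls and 2120, 1773, 2064 and 2005 bp in the transgenic libraries. At each of these genes the groups overlapped. The log2 differences were -0.01 ± 0.066 for Psmb8 (interval -0.16 to 0.14), -0.06 ± 0.074 for Psmb9 (-0.23 to 0.11) and -0.02 ± 0.077 for Psmb10 (-0.19 to 0.16). Of the 9 marker genes of microglia, which express the immunoproteasome, 7 were at 0 bp in all 8 libraries, C1qa had a peak in 3 and Cx3cr1 in 1, and the list averaged 13.9 ± 16.6 bp in the controls and 22.2 ± 26.7 bp in the transgenic libraries (SD, n = 4). Of the astrocyte markers 3 of 6 had a peak in every library, of the oligodendrocyte markers 3 of 8 and of the endothelial markers 2 of 7, and their part in these values was not tested.

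By the median percentile of enrichment at the peak summit, Psmb8 and Psmb9 ranked below the constitutive subunits. The authors' fold enrichment at the summit of the strongest peak in each window, a value of their peak caller used here only to rank within a list, was turned into a percentile among tested autosomal genes in each library. Psmb8 had the lowest median percentile of all 45 members, 24.5, and stayed between 20.9 and 26.2 in the 8 libraries. Psmb9 had a median of 34.0, with the median of none of the 30 constitutive subunits tested below it, and Psmb10 one of 67.3, with 6 below. Over the libraries Psmb9 ran from 27.0 to 45.7, which overlapped constitutive subunits such as Psmb5 (32.2 to 56.0) and Psma3 (32.4 to 48.0). The peak ranked for Psmb9 is shared with its neighbour Tap1 and cannot be assigned to either gene. The 30 constitutive subunits had a median percentile of 86.0, from 39.7 at Psmb5 to 99.7 at Psmb2, and 27 of them were above 50. Psmb2 reached summit folds of 42.3 to 75.7, Psmb5 17.1 to 40.4, Psmb9 21.4 to 32.2 and Psmb8 13.5 to 24.7. Outside the core and cap, Psme1 (26.3), Psmg1 (33.0) and Psmg4 (38.0) were also low, whereas Psme3 (97.4) and Psme4 (92.2) were high. These are descriptions of single genes, and no test was made over them.

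**Figure D3:**
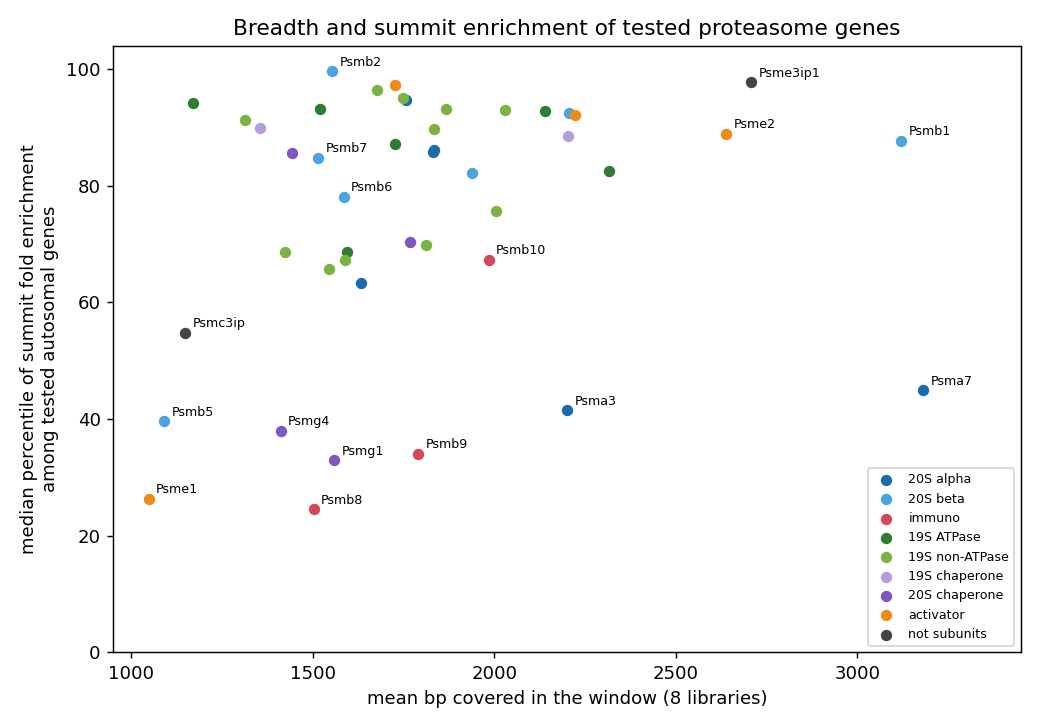
Mean covered bp over 8 libraries against the median percentile of summit fold enrichment among tested autosomal genes, 1 point for each of the 45 genes, coloured by role. Psmb8 and Psmb9 sit at percentiles of 24.5 and 34.0 at breadths of 1503 and 1790 bp, where most subunits of like breadth are above 60.

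The sequences before the starts of the cutting subunits and their interferon-inducible counterparts are shown because these genes differ in strength and in position of the mark. Each run holds the 250 bases before the RefSeq start (GRCm38.p6, the assembly that mm10 follows), 5′ to 3′ on the strand of the gene, ending at the base before the start. Psmb7 had no entry and is named only. Capitals mark matches on either strand to any of 7 motifs. The antioxidant response element core was searched as TGACNNNGC and the CCAAT box under its own letters. The GC box, bound by Sp factors, was searched as GGGCGG. The core recognised by factors of the ETS family was searched as CCGGAAG. The TATA box was searched under the letters TATAAA. Part of the interferon-stimulated response element was searched as GAAANNGAA and part of a kappa B site as GGGANTTTC.
Psmb5 (chr14:54617996-54618245, minus strand): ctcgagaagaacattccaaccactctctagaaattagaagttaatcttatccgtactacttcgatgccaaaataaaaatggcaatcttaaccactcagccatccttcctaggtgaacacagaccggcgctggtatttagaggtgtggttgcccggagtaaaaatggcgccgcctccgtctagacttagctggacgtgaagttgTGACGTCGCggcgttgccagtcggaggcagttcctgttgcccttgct
Psmb8 (chr17:34197945-34198194, plus strand): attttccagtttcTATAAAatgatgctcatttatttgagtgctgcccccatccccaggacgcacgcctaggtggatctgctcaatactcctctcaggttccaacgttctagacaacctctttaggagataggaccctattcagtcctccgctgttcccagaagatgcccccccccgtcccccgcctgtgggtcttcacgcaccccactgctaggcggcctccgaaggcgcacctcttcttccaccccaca
Psmb6 (chr11:70525107-70525356, plus strand): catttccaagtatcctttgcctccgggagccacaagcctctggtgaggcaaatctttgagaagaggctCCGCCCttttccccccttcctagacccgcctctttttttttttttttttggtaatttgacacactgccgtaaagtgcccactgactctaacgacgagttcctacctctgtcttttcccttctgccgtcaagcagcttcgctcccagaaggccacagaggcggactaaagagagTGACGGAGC
Psmb9 (chr17:34187331-34187580, minus strand): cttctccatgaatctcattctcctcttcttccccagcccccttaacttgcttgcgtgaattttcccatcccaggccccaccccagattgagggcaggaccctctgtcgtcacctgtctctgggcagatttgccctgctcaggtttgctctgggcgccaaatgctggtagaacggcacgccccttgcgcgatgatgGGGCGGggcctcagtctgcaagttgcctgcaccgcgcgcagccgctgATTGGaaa
Psmb10 (chr8:105938393-105938642, minus strand): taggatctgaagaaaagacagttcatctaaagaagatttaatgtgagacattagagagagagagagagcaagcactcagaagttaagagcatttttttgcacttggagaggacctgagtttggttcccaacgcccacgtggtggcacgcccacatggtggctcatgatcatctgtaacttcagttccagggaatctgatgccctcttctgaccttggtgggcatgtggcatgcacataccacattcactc

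Psmb5 and Psmb6 each hold the antioxidant response element core, beginning 47 and 9 bases before the start. That motif is bound by Nfe2l1 and Nfe2l2, of which Nfe2l1 is known to raise proteasome genes when the proteasome is inhibited. It was found in 6 of 42 members (14.3%), Psmb5, Psmb6, Psmc6, Psmd9, Psmd12 and Psme4, against 13.2% of 16457 autosomal promoters of the same 300 bases and 14.5% of the marked ones. Psmb8 has a TATAAA match 237 bases before its start, and Psmb9 a GC box at 55 and a CCAAT match at 8, while no match fell in Psmb10. The run of Psmb10 held few CpG dinucleotides: with the 50 bases after the start added it had 3, against 11 for Psmb8, 17 for Psmb9, 20 for Psmb5 and 15 for Psmb6. A ratio of observed to expected CpG above 0.6 was reached by 22 of 25 constitutive promoters (88%) and by 0 of 3 immunoproteasome promoters. It was reached by 50.7% of all promoters in the table, or 75.5% of those with a peak in all 8 libraries. The ratio was 0.192 at Psmb10, 0.523 at Psmb8 and 0.5996 at Psmb9, the last only just under the cut. CpG count and covered bp went together only weakly over the 40 marked members (Pearson r of 0.17, Spearman rho of 0.05; r of 0.31 over the 10433 marked promoters), points that share libraries and base composition.

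Of the other motifs, the ETS core stood at 16 of 42 members (38.1%), against 12.4% of all promoters and 17.9% of the marked ones. Among the constitutive subunits it was in 10 of 25: Psma6, Psmc1, Psmc2, Psmc6, Psmd2, Psmd4, Psmd6, Psmd11, Psmd12 and Psmd13, all but the first encoding the regulatory particle. It was in 0 of 3 immunoproteasome promoters. GC boxes were in 23 members (54.8%), a share above that of all promoters (48.1%) and below that of the marked ones (66.6%). CCAAT was in 13 (31.0%), against 38.7% of all and 38.4% of the marked promoters. TATAAA was in 4 (9.52%), which is below all promoters (13.3%) and above the marked ones (7.09%). GAAANNGAA was in 7 (16.7%), against 8.01% of all and 6.38% of the marked promoters. Those 7 were Psmb3, Psmb4, Psmc2, Psmd4, Psmd9, Psme1 and Psmg4, and it was in 0 of 3 immunoproteasome promoters. GGGANTTTC was in 0 members, against 1.13% of all and 0.930% of the marked promoters. These counts describe letters in one window and not binding.

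The mark lay mostly inside the genes, as it did at marked genes in general. Over the 40 members with a RefSeq start and a peak in all 8 libraries, a median of 545 bp was covered before the start and 1162 bp after it, and 33 of 40 (82.5%) had more after than before. Over 10433 marked autosomal genes the medians were 596 and 1120 bp, and 79.2% had more after than before. The base of the start itself was covered in all 8 libraries at 32 of the 40 (80%), against 55.6% of the 10433. In the 25 constitutive subunits the share of libraries with a peak reached 100% at 438 bp into the gene, where the mean over all marked genes peaked at 89.7% at 338 bp. At 500 bp into the gene it was 100% for these subunits and 88.1% for all marked genes, at 1000 bp 82.8% and 61.5%, and at 1500 bp 13.1% and 31.3%.

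The 3 immunoproteasome genes differed among themselves in where the mark lay. Psmb9 had 32.9% of its covered length after the start, its summits lay before the start in all 8 libraries, at -572 to -326 bp, and the marked end of Tap1, which encodes a peptide transporter of antigen presentation, is 226 bp away on that side. The window values of Tap1 and Psmb9 were the same in all libraries, so the peak cannot be assigned to either gene. Psmb8 had 36.7% after the start, with summits after the start in 5 of 8 libraries; the constitutive subunit Psmd13 had a like share, 35.6%. Psmb10 had 97.4% after the start and a median summit 1059 bp into the gene. The better covered end of Lcat, a cholesterol-esterifying enzyme, lies 1159 bp away on the other side, before the start, with a mean of 888 bp in its window. No library had a peak from 1988 to 138 bp before the Psmb10 start. Psmc4 and Psmd6, at 93.6% and 92.5%, came near the 97.4% of Psmb10. Of the constitutive subunits, 23 of 25 had more of the mark after the start than before, against the 79.2% of all marked genes.

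**Figure D4:**
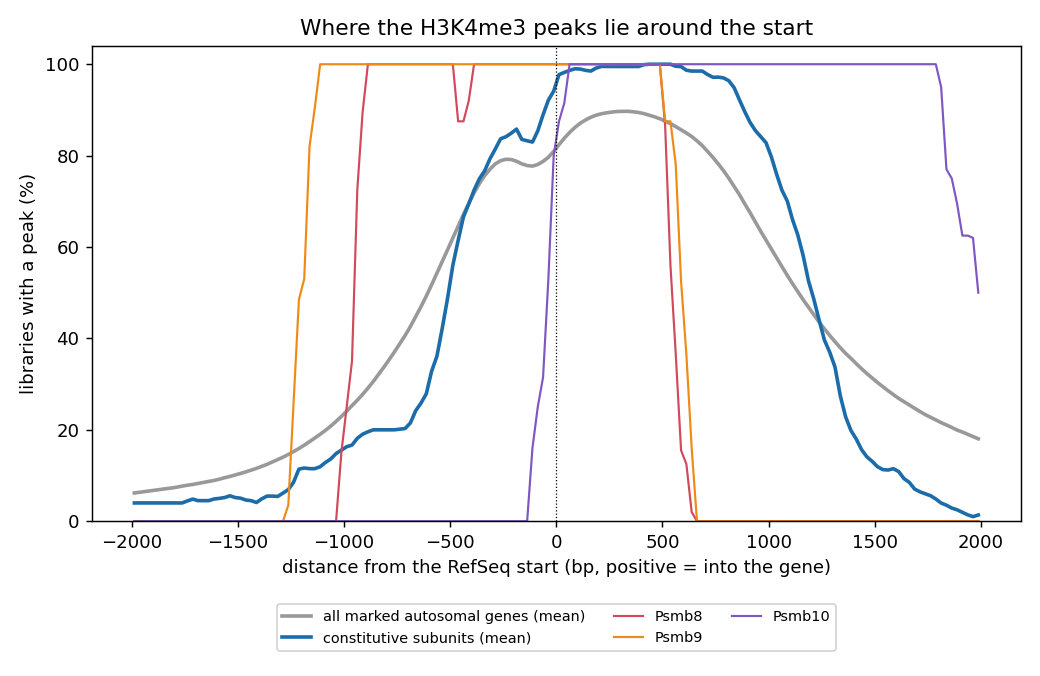
Share of the 8 libraries with a peak at each distance from the RefSeq start, in bins of 25 bp, as means over 25 constitutive subunits and over 10433 marked autosomal genes and for Psmb8, Psmb9 and Psmb10 alone. The constitutive mean reaches 100% at 438 bp into the gene; Psmb8 and Psmb9 extend before the start and Psmb10 almost wholly after it.

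All 6 ATPases of the regulatory particle, which unfold substrates, carried the mark in every library. Psmc5 was the broadest at 2066 to 2601 bp and shares its region with Ftsj3, 101 bp away. Psmc4 was the narrowest at 1069 to 1333 bp, yet its summit percentile of 94.3 was among the higher ones. Psmc2 averaged 2139 bp at its measured end, which lies 11 bp from that of Dnajc2, and 2258 bp around its RefSeq start, 1472 bp away. Psmc1, Psmc3 and Psmc6 averaged 1595, 1726 and 1519 bp. Their log2 differences, 2 above 0 and 4 below, had a median of -0.02.

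The 11 other subunits of the regulatory particle were marked in every library as well, with means from 1312 bp at Psmd6 to 2029 bp at Psmd13. Psmd2, which binds ubiquitin-like domains of shuttle factors, had the smallest difference of all, 0.00 ± 0.099, with 1594 to 2022 bp in the controls and 1573 to 1926 bp in the transgenic libraries. Psmd8 had the lowest, -0.12 ± 0.080, at 2005, 2016, 2079 and 2175 bp in the controls and 1635, 2201, 2127 and 1793 bp in the transgenic libraries. The transgenic libraries lay on both sides of the controls there. Psmd3 had -0.11 ± 0.067, with 1829 to 2059 bp in the controls and 1464 bp in transgenic library 1 against 1897 to 1941 bp in the other transgenic libraries. The ubiquitin receptor Psmd4 averaged 1543 bp and the deubiquitinase Psmd14, which removes the chain, 1813 bp. Psmd1, Psmd7 and Psmd11 averaged 1677, 1589 and 1422 bp. Psmd13 shares its region with Sirt3, a mitochondrial deacetylase, 85 bp away, and Psmd8 has Catsperg1 at 859 bp. The median log2 difference of these 11 was -0.02, and 4 exceeded 0.

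Activators open the core without ubiquitin. Psme1 and Psme2, the interferon-inducible pair, were the narrowest and among the broadest members: Psme1 averaged 1048 bp and Psme2 2639 bp. At Psme2 25.1% of the mark lay after the start, with summits before it at -1132 to -841 bp, and Rnf31, a ubiquitin ligase subunit of NF-kappa B signalling, begins 612 bp away. Fitm1 lies 1542 bp from Psme1. Psme4, an activator linked to histone degradation, averaged 2223 bp with a difference of 0.02 ± 0.065. The inhibitor Psmf1, measured at its RefSeq start, covered 1401, 1631, 1737 and 1422 bp in the controls and 1673, 2149, 1821 and 1927 bp in the transgenic libraries. One transgenic library lay within the controls, and the log2 difference was 0.25 ± 0.093, the largest of any member under either position, with an adjusted p of 0.9985 in limma. It was the only one of the 40 members tested at RefSeq starts to be higher at an unadjusted p under 0.05, where 2.62% of all genes were, and none was lower.

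Assembly chaperones build the core and the cap and are not part of the finished particle. The core chaperones Psmg1, Psmg2, Psmg3 and Psmg4 averaged 1560, 1768, 1444 and 1412 bp, and their differences were all below 0, between -0.02 and -0.06. Psmg2 shares its region with Cep76, 232 bp away. The cap chaperones Psmd5 and Psmd9 averaged 2202 and 1354 bp, with differences of -0.04 and -0.06. Psmc3ip, a cofactor of meiotic recombination, averaged 1148 bp, and Psme3ip1, which binds the product of Psme3, averaged 2708 bp and shares its region with Rspry1 and LOC115486880, 21 and 346 bp away.

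Most other genes of the pathway carried the mark. Of 38 further genes listed, 37 were found in the annotation and 36 had a peak in all 8 libraries. The exception was Ecpas, which encodes a scaffold of the proteasome, with no peak at either gene end. Its RefSeq start is not reported here, and Psma6 and Psmf1 were at 0 bp at their gene ends yet marked at their RefSeq starts. Their median log2 difference was -0.015, with 13 above 0 and 23 below, and 0 passed an adjusted p of 0.05. Among 11 proteasome-associated genes the smallest p on each side of 0 belonged to Zfand2a (0.11 ± 0.073) and Zfand5 (-0.11 ± 0.13), which encode proteins that bind the proteasome under stress. Of the 4 genes that control proteasome transcription, Nfe2l1, Nfe2l2, Ngly1 and Ddi2, none had a difference above 0, where 46.4% of all genes tested did. The differences at Nfe2l2 (-0.0037 ± 0.50) and Nfe2l1 (-0.012 ± 0.076) were small beside their errors, so their signs carry little. Ddi2, the protease that activates the product of Nfe2l1, had -0.10 ± 0.072. For ubiquitin and delivery factors the values were 0.06 ± 0.091 at Rad23b and -0.08 ± 0.049 at Ube3a, a ubiquitin ligase of neurons. All 8 antigen-processing genes were marked in every library, with 0.09 ± 0.067 at Erap1 and -0.11 ± 0.10 at Irf1, a transcription factor that induces the immunoproteasome.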

How the data were processed

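Peaks were the authors' own. They deposited 1 list per H3K4me3 library, whose layout is that of MACS2, without a header; each line holds a position, a score, a fold enrichment at the summit (a ratio) and the −log10 of p and q. The deposited score entered no measure. For the setting with equal numbers of peaks, peaks were ranked by −log10 q and then by −log10 p. The smallest deposited −log10 q lay between 1.31 and 1.42. The submitters' processing notes name the build mm10, Bowtie2 2.0.2, MACS2, DiffBind, limma, SAMtools 1.3.1, FastQC 0.11.5 and deepTools 3.0.1, and the sources used here do not say what each did or how it was set. Peak number and breadth can both vary with the depth and quality of a library, and here they did not rise together. Transgenic library 1 had the most peaks, 102285, and the lowest median breadth over promoters marked in all 8 libraries, 1612.5 bp. The 2 background samples were not analysed here.

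Gene ends and starts came from RefSeq (GRCm38.p6). Breadth was log2(covered bp + 100), centred per library on its median over promoters marked in all 8, for genes with a peak in at least 4 libraries. It was compared with limma 3.58.1 (R 4.3.3; trended, robust variance) with Benjamini-Hochberg adjustment over all genes; the procedure was tested on simulated data. Python 3.11.15 and pandas 2.3.3 did the rest. All members are named; of each other list, the gene with the smallest p on each side of 0, and genes whose own marked end lies within 2 kb of a member's. The members and lists were chosen with earlier results of these data known. Marked means a peak in all 8 libraries. Other settings tried were centring, pseudocount, filter, peak threshold, equal numbers of peaks, window, RefSeq starts, variance model, autosomes only, replicate block and leaving out each library. Whether each library is a separate animal is not in the labels; the p-values then reflect only the spread between libraries, which may be technical. Same-numbered libraries correlated in their deviations between -0.16 and 0.17, so no pairing by number was evident. With 4 libraries a group, such correlations cannot exclude a pairing.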

Additional observations from a re-analysis of the deposited data

Results flagged for a closer look

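In 8 of 105 groups of 4 libraries, 1 library stood far from the other 3 in covered bp; chance alone gives this in about 1 in 20 groups. Transgenic library 1, whose list is the longest, was the low one at Psmc2 (1930 bp against 2138 to 2163; around the RefSeq start of Psmc2 it was not the low one, at 2271 bp against 1918, 2695 and 2092), at Psmd3 (1464 against 1897 to 1941) and at Irf1 (930 against 1372 to 1429). Control library 1, whose list is the shortest, was low at Psmd1 (1590 bp against 1751 to 1769) and at Psmd7 (1224 against 1686 to 1779). Transgenic library 4 was high at Psmc4 (1333 bp against 1069 to 1107) and alone carried a peak at Psmb11 (424 bp, the others at 0). Control library 2 was high at Psmd12 (1788 bp against 1727 to 1737), by a margin small beside the breadth itself.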

How the results depend on the processing

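No member passed an adjusted p of 0.05 in limma under any of the 21 alternatives, and 45 had a peak in every library under each alternative that measured all 50. Members at an unadjusted p under 0.05 in limma numbered 0 to 3, the most without centring. In the main fit 2.80% of all genes were higher and 1.32% lower at that threshold. For the alternatives such shares were not counted, except for 2.62% higher at RefSeq starts. Over all genes 5 passed with ordinary variances and 0 in every other alternative. The members' median log2 difference lay between -0.052 (without transgenic library 1) and 0.0053 (without centring), where 10 of 45 genes changed sign; in the window of 1 kb 10 did, and 3 to 8 did when 1 library was left out. The median of all genes tested was 0.013 without centring, -0.0062 with a pseudocount of 500 bp, -0.0051 without the filter, -0.010 with a peak required in all 8 libraries, -0.00059 in the window of 1 kb, and from -0.014 to -0.0053 with 1 library left out. In the window of 1 kb the median breadth was 1483 bp for constitutive and 1500 bp for immunoproteasome subunits, since that window holds less. With the replicate number as a block the members' median was -0.015 and 0 were called, and 45 of 45 kept their sign. No pairing of the libraries by number was evident. Without transgenic library 1, a check added after the data were seen, the count of members higher without overlap in uncentred bp went from 3 to 5. The share of all genes tested that were so went from 1.86% to 5.61%. Differences below the width of the intervals were not detectable with 4 libraries a group, and peak lists do not record signal under the authors' threshold.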

Other observations

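Psmd10, the X-linked gene of a regulatory particle chaperone that the rule left out, covered 1654, 1762, 1516 and 1720 bp in control libraries 1 to 4 and 2017, 1690, 1487 and 1740 bp in transgenic libraries 1 to 4, so the groups overlapped. Of 6 annotated pseudogenes of core subunits, the autosomal Psmb6-ps2, Psma5-ps and Psmb5-ps had no peak in any library. On the X chromosome, Psmb6-ps had a peak in all 8 libraries, from 440 to 1204 bp, Psmb7-ps2 in 4 and Psmb7-ps1 in 0. Short reads from near-identical copies may be placed at either copy, so these values are uncertain.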
